A study of Homo sapiens with 10 samples.

Results

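Myricetin and quercetin are plant flavonols with the same ring skeleton. Their side ring, the B ring, carries neighbouring hydroxyl groups, a catechol in quercetin and, with an additional hydroxyl, a pyrogallol in myricetin. Here the readout compared between them was the transcriptome of THP-1 macrophages. Of the 10 arrays of the series, the 4 arrays that the labels give to these compounds were compared, 2 with myricetin and 2 with quercetin, each compound on cells of passages 7 and 8. This is 1 pair of compounds.

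THP-1 is a human monocytic leukemia cell line that takes on a macrophage form under PMA, a phorbol ester. All groups were cells of this line given PMA for 24 h and then a treatment for 24 h. The remaining arrays are 3 with DMSO, the solvent control, and 3 with punicalagin, a pomegranate tannin, each at passages 6, 7 and 8. They serve here as the reference level and to estimate the spread between arrays. The labels state no dose for either flavonol, so whether the doses matched is not known, and the compound and its dose cannot be told apart. A single leukemia line was used, and its replicates are passages of that line. RNA was read on Affymetrix Human Gene 1.0 ST arrays, and every level below is a log2 intensity per transcript cluster, the array's unit for a gene. Differences between levels are also on the log2 scale, where 1 is a 2-fold difference, and are given as myricetin minus quercetin unless another order is named, so that a negative value is higher with quercetin. The RNA came from whole cultures, so a change in some of the cells and a change in all of them cannot be told apart.

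Flavonols scavenge radicals and bind metal ions, and they are known to inhibit many kinases. They also bind the aryl hydrocarbon receptor, a ligand-activated transcription factor that turns on CYP1A1, CYP1B1 and TIPARP. In macrophages, the programmes studied with flavonols include inflammatory signalling through NF-kB, cholesterol handling through the liver X receptors, and the antioxidant genes of the factor NRF2. Members of these programmes were therefore compared as lists, beside lists for other processes.

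Median levels of the arrays lay between 5.14 and 5.25. The macrophage and monocyte markers averaged 8.11 to 9.04 on an array, and 12 or 13 of the 14 measured stood above the array's median. Of the 8 T cell markers at most 1 did, of the 6 epithelial markers 1 or 2 did, and of the 8 fibroblast markers 1 to 3 did. Of the 6 B cell markers 1 or 2 did. Between the flavonols, 9 of the 14 macrophage markers had a lower and 5 a higher value with myricetin, with differences from -1.28 to 1.03 and a median of -0.10. CD68 and CD163 passed the threshold, both higher with quercetin, and CD14 (0.90, adjusted p = 0.597, limma) did not. The DMSO array of passage 6 stood apart from the other DMSO arrays, with 457 and 629 genes at least 2-fold away from them, against 114 genes between those at passages 7 and 8. It does not enter the difference between the flavonols, but it widens the shared spread.

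The flavonols gave different profiles. The myricetin arrays differed from each other by at least 2-fold in 18 genes and the quercetin arrays in 4 genes. Between a myricetin and a quercetin array of the same passage, 454 genes at passage 7 and 413 at passage 8 were at least 2-fold apart. In limma's fit over all 10 arrays, 410 of 18417 genes (2.23%) differed between the flavonols at an adjusted p under 0.05. Of these, 128 genes (0.695% of those tested) were higher with myricetin and 282 (1.53%) were higher with quercetin. In 271 of them the difference was 2-fold or more, 77 higher with myricetin and 194 higher with quercetin. All 410 had the same sign at both passages and no overlap between the 2 arrays of each compound, but arrays also failed to overlap in 54.8% of all genes. The lower of the flavonol means of 20 called genes lay under the lower quartile of the arrays, where differences are least certain. For the median gene, the 95% interval of the difference reached 0.40 to either side, which is 1.32-fold.

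The number of genes past the threshold depended on single arrays. It was 54 and 86 without the myricetin array of passage 7 or 8, and 76 and 74 without the quercetin array of passage 7 or 8. A lone array is then assumed to vary like the other groups. Without the DMSO array of passage 6 it was 847. The direction of the 410 genes could not change in these fits, since the arrays of the compounds did not overlap in any of them. Leaving out a DMSO array does not alter the difference itself. Among the 92 called genes examined 1 by 1, of which most are named below, 26 passed the threshold under every alternative apart from the methods' t-test, and 66 missed it without at least 1 flavonol array.

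The passages can be read against each other, since they are on separate arrays. Of 305 genes at least 2-fold higher with quercetin at passage 7, 98.4% had the same sign at passage 8, where their median difference was -1.13. Of 149 genes at least 2-fold higher with myricetin at passage 7, 98.7% had the same sign at passage 8, with a median of 0.94. Chosen at passage 8 instead, 293 genes higher with quercetin kept their sign at passage 7 in 99.3% and 120 genes higher with myricetin in 90%. Across all genes the differences at the 2 passages correlated at r = 0.661 (Spearman's rank correlation 0.499), a description across genes, which are not independent.

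**Figure D1:**
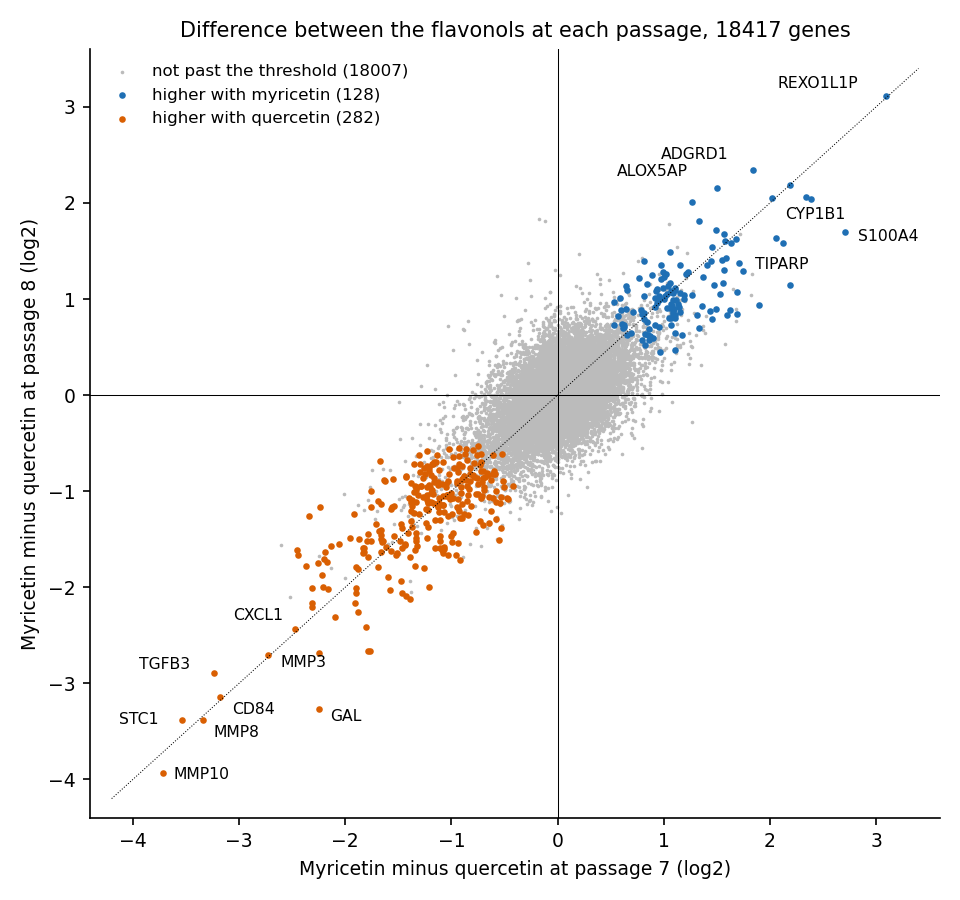
Each point is a gene, with the difference myricetin minus quercetin (log2) at passage 7 on the x axis and at passage 8 on the y axis. Coloured points passed an adjusted p under 0.05, 128 higher with myricetin and 282 higher with quercetin, and the dotted line marks equal differences. The called genes lie in the quadrants where both passages have the same sign, and MMP10 has the widest difference.

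Matrix metalloproteinases, the secreted enzymes that cut extracellular matrix, formed the list with the largest share of called genes. Of the 20 metalloproteinases and inhibitors, 6 were higher with quercetin (30%, against 1.53% of all genes in that direction) and none was higher with myricetin. The list's median difference was -0.53, beside 0.03 over all genes. MMP10 (stromelysin-2) read 4.67 and 4.53 with myricetin at passages 7 and 8, 8.39 and 8.47 with quercetin, and 4.43 to 5.44 on the DMSO arrays. Myricetin thus lay within the range of DMSO while quercetin lay above all other arrays, and the flavonols differed by -3.83 ± 0.25 (SE; 14.2-fold, adjusted p = 2.64e-05). MMP3 (stromelysin-1) had the same order, with 3.65 and 3.74 under myricetin, 6.38 and 6.44 under quercetin and 3.43 to 4.68 under DMSO. The flavonols differed by -2.71 ± 0.30 (6.56-fold, adjusted p = 0.000729, limma). Its myricetin values lay near the lower quartiles of their arrays, 3.67 and 3.71, and its lowest DMSO value lay under the quartile. A level there may be background, so the size of this difference is uncertain.

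MMP8, a collagenase first known from neutrophils, was raised by both compounds and to a different height. It read 2.47 to 3.26 on the DMSO arrays, 4.50 and 4.41 with myricetin, and 7.83 and 7.80 with quercetin, with no overlap between any of the 3 groups. The DMSO values lie under the lower quartile of these arrays (3.63 to 3.70), where a level may be background, so the size of the rise is uncertain. Against DMSO the rise was 1.63 with myricetin (adjusted p = 0.00755) and 4.99 with quercetin (adjusted p = 3.78e-07), and the flavonols differed by -3.36 ± 0.25 (10.3-fold, adjusted p = 0.000102). MMP19 (-2.05, adjusted p = 0.00766), MMP7 (-1.74, adjusted p = 0.00107) and TIMP3, the inhibitor that binds to matrix (-1.29, adjusted p = 0.0351), completed the called members. Of these 6, MMP10, MMP8, MMP3 and MMP7 passed whichever array was left out. MMP19 and TIMP3 missed the threshold without at least 1 flavonol array (adjusted p up to 0.129 and 0.28). With genes below the median level left out, where MMP8, MMP3 and MMP7 are no longer tested, 3 members passed.

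Other members of the family did not pass. MMP1, the interstitial collagenase, differed by -1.66 (95% interval -2.71 to -0.61, adjusted p = 0.113) and MMP9, gelatinase B, by -1.06 (-2.08 to -0.04, adjusted p = 0.366). For both genes the DMSO arrays were widely spread, 5.89 to 8.09 for MMP1 and 8.30 to 10.42 for MMP9, and this spread enters the error of the flavonol difference. MMP2 (0.08, interval -0.59 to 0.76), MMP14 (-0.11, interval -0.46 to 0.25) and TIMP2 (0.06, interval -0.36 to 0.48) had intervals that hold differences of less than 2-fold in either direction.

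**Figure D2:**
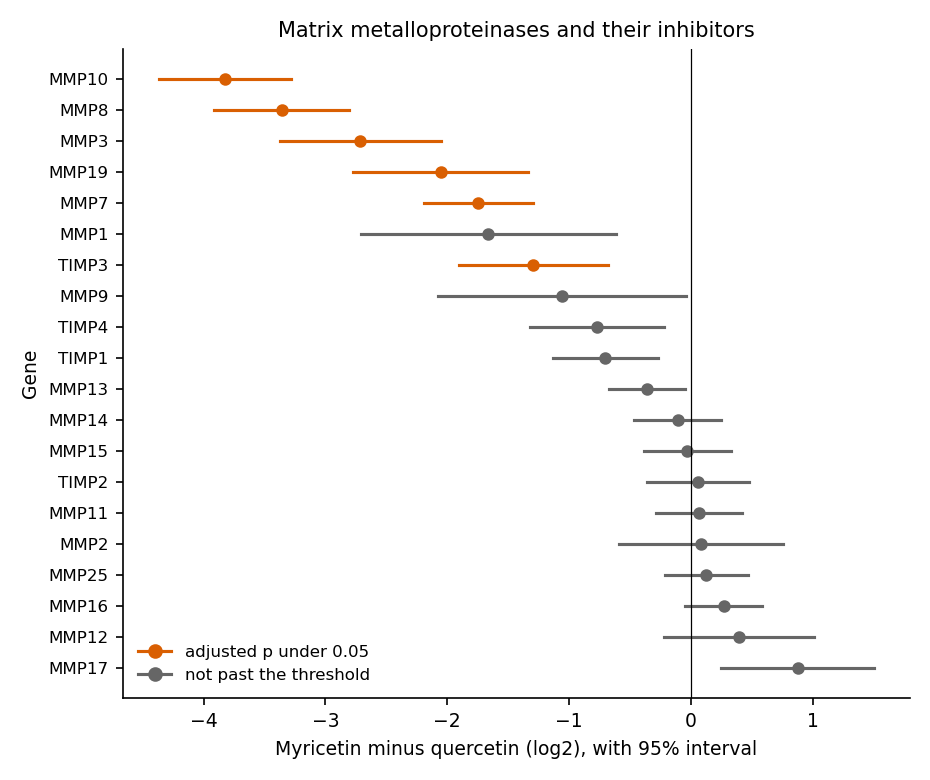
Difference myricetin minus quercetin (log2) for each of the 20 matrix metalloproteinases and inhibitors, with the 95% interval from limma over 10 arrays. Orange marks genes past the threshold. The 6 called genes lie left of 0, from TIMP3 at -1.29 to MMP10 at -3.83, and the other genes did not pass.

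Other secreted factors and surface receptors were among the 15 genes with the widest difference in favour of quercetin. TGFB3, a growth factor of the transforming growth factor beta family, read 5.62 and 5.84 with myricetin and 8.86 and 8.73 with quercetin, above 4.55 to 4.74 with DMSO. Its groups did not overlap and the flavonols differed by -3.07 ± 0.17 (8.37-fold, adjusted p = 9.42e-06), the smallest adjusted p of the comparison. The neuropeptide galanin (GAL) differed by -2.75 ± 0.25 (6.74-fold, adjusted p = 0.000297) and neuromedin B (NMB) by -2.22 (4.65-fold, adjusted p = 0.000434). STC1, which encodes the secreted glycoprotein stanniocalcin, was 11-fold higher with quercetin (-3.46 ± 0.66, adjusted p = 0.0188), but its DMSO arrays ranged from 5.55 to 8.35, and its adjusted p reached 0.203 without a flavonol array.

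Among the surface receptors, CD84 of the SLAM family differed by -3.16 ± 0.40 (8.94-fold, adjusted p = 0.00183), with 4.69 and 4.95 under myricetin and 7.87 and 8.09 under quercetin. The adhesion receptor CD226 differed by -2.46 (adjusted p = 0.00356, up to 0.0695 without a flavonol array) and the adhesion molecule CLMP by -2.22 (adjusted p = 0.000544). LHFPL2, a membrane protein with several spans, and DOCK3, an activator of the GTPase Rac, differed by -2.20 and -2.26 (adjusted p = 0.000434 and 0.00516). DOCK3 missed the threshold without a flavonol array (adjusted p up to 0.0811). Against DMSO, the differences of these secreted factors and receptors, LHFPL2 and DOCK3 with myricetin lay between -1.07 for STC1 and 1.08 for TGFB3, and of these only that of TGFB3 passed.

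The integrins, which attach cells to matrix, were higher with quercetin in 4 of 22 genes (18.2%, against 1.53% of all genes), and none was higher with myricetin. ITGB1, the beta chain shared by most matrix-binding integrins, read 7.64 and 7.56 with myricetin, 8.96 and 9.13 with quercetin and 7.91 to 8.12 with DMSO. The flavonol groups lay on opposite sides of the DMSO arrays and differed by -1.45 ± 0.15 (2.72-fold, adjusted p = 0.000544). ITGB3 differed by -2.46 (5.49-fold, adjusted p = 0.00796), ITGA2, the alpha chain of a collagen receptor, by -1.42 (adjusted p = 0.00275), and ITGAV by -0.79 (adjusted p = 0.0361). The list's median was -0.19. ITGB1 passed whichever array was left out, while the count of integrins was 1 or 2 without a flavonol array and 7 and 10 without the DMSO arrays of passages 6 and 8.

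Of 26 chemokines measured, 6 were higher with quercetin and none with myricetin (23.1% called, against 1.53% of all genes in that direction), and the list's median was -0.50. Of these, 5 are known to attract neutrophils, and CXCL10, which attracts T cells, is given with the interferon genes. CXCL1 read 7.54 at both passages with myricetin, 9.85 and 9.71 with quercetin, and 7.46 to 8.26 with DMSO. Myricetin lay inside the DMSO range and quercetin above it, with a difference of -2.24 ± 0.21 (4.71-fold, adjusted p = 0.000318). CXCL2, of the same receptor's ligands, differed by -2.04 (4.12-fold, adjusted p = 0.00969), PPBP by -1.80 (adjusted p = 0.00314), CXCL8 by -1.40 (adjusted p = 0.0142) and CXCL6 by -1.01 (adjusted p = 0.00407). CXCL3 and CXCL5, which also attract neutrophils, missed the threshold (-1.07 and -0.87, adjusted p = 0.0523 and 0.0522).

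CXCL8 was ordered differently against the solvent. It read 9.44 and 9.95 with myricetin, 11.10 and 11.09 with quercetin and 10.29 to 11.20 with DMSO. Quercetin lay inside the DMSO range and myricetin below it, although neither compound passed the threshold against DMSO (adjusted p = 0.0651 for myricetin and 0.594 for quercetin). CXCL1 passed whichever array was left out, and the number of called chemokines was 1 without the myricetin array of passage 7, 4 without that of passage 8, and 4 and 3 without the quercetin arrays of passages 7 and 8. It was 11 without the DMSO array of passage 6.

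The wider list of inflammatory genes driven by NF-kB had a median of -0.50 as well, and 30 of its 33 members were lower with myricetin. CXCL1, CXCL2 and CXCL8, given above with the chemokines, passed (9.09%, against 1.53% of all genes higher with quercetin). The cytokines at the head of this pathway were not called. IL1B differed by -0.74 (95% interval -1.57 to 0.09, adjusted p = 0.465) and TNF by 0.37 (-0.82 to 1.56, adjusted p = 0.869). Their intervals reach beyond 2-fold, so neither a difference nor its absence was shown. Without the DMSO array of passage 6, 10 members of the list passed, and 7 passed without that of passage 8.

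Genes of the type I interferon response, through which cells resist viruses, were higher with quercetin in 9 of 35 genes (25.7%, against 1.53% of all genes) and with myricetin in none. The list's median was -0.50, and 29 members had a negative difference. IFI44 read 3.66 and 4.07 with myricetin, 5.92 and 5.82 with quercetin, and 4.26 to 4.88 with DMSO, so that the flavonols lay on opposite sides of the solvent. They differed by -2.01 ± 0.22 (4.01-fold, adjusted p = 0.000702). MX1, a GTPase that blocks viral replication, read 5.07 and 5.34 with myricetin, 6.69 and 6.92 with quercetin and 5.55 to 6.02 with DMSO, and differed by -1.60 ± 0.20 (3.03-fold, adjusted p = 0.00162).

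The other called members were IFI44L (-1.71), EPSTI1 (-1.58), MX2 (-1.38), OAS3, which makes the activator of RNase L (-1.18), SAMD9L (-1.18), the chemokine CXCL10 (-1.16) and the antiviral enzyme RSAD2 (-1.10). Their adjusted p lay between 0.00231 for CXCL10 and 0.0201 for SAMD9L. Against DMSO, IFI44 rose by 1.41 with quercetin (adjusted p = 0.00148) and had a difference of -0.60 with myricetin (adjusted p = 0.344), and MX1 had 0.97 (adjusted p = 0.00818) and -0.63 (adjusted p = 0.215). GBP2, a guanylate-binding protein of the same list, went the other way without passing (1.07, adjusted p = 0.0687). IFI44 and MX1 passed whichever array was left out. The count of the list was 2 and 6 without the myricetin arrays of passages 7 and 8 and 3 without either quercetin array. It was 4 with dim genes left out, where fewer of its members are tested, and 5 with all clusters tested.

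The interferon-stimulated response element is the DNA word bound by the factors that turn on these genes. It was searched as GAAA, 2 free bases and GAAA on both strands in the 250 bases before the start of each gene (RefSeq, GRCh38.p14), a window found for 14239 of the 18417 genes. It occurred in 2.57% of all promoters, in 16 of the 27 promoters of the interferon list and in 5 of the 8 promoters of its called members. Of 217 promoters of genes higher with quercetin, 5.99% held it, and of 90 promoters of genes higher with myricetin none did. The promoters of 4 of these 5 called genes are printed to show where the word lies (the fifth is that of CXCL10), with each match in capitals. A match describes the letters and is not a bound site.
IFI44L, chr1:78620198-78620447, plus strand: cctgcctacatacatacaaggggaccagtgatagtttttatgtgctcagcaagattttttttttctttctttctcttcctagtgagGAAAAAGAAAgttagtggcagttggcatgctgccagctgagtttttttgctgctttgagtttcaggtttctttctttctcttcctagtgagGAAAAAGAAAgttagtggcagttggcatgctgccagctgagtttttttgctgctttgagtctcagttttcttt
IFI44, chr1:78649539-78649788, plus strand: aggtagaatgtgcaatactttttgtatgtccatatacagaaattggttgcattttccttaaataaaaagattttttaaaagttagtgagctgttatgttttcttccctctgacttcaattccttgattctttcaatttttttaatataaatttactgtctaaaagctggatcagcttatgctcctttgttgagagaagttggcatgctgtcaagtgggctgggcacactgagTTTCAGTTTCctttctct
OAS3, chr12:112938224-112938473, plus strand: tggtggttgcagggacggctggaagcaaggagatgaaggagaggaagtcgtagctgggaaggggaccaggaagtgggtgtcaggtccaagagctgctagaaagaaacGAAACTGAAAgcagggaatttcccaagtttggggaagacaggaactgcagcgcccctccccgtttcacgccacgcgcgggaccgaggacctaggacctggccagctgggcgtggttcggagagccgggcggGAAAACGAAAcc
EPSTI1, chr13:42992242-42992491, minus strand: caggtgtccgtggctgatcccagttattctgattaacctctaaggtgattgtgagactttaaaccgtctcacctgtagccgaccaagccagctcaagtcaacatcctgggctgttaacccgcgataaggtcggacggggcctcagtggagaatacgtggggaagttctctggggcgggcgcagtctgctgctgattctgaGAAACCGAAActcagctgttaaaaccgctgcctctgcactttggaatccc

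IFI44L and IFI44 are neighbours on chromosome 1. Counted back from the start of the gene, IFI44L has matches that begin at -164 and -73, IFI44 has 1 at -18, OAS3 has them at -143 and -12, and EPSTI1 has 1 at -50. The differences at passages 7 and 8 were -2.26 and -1.75 for IFI44, -1.83 and -1.59 for IFI44L, -1.35 and -1.01 for OAS3, and -1.92 and -1.24 for EPSTI1. The 4 genes were taken from those called higher with quercetin, and all 410 called genes had the same sign at both passages. Their shared direction therefore follows from the choice and says nothing about the motif.

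Genes of cholesterol handling were split. Of 14 genes listed for the liver X receptors, 21.4% were higher with quercetin, against 1.53% of all genes, and none with myricetin. NR1H3, which encodes the liver X receptor alpha, read 5.38 to 5.67 with DMSO, 6.57 and 6.68 with myricetin, and 8.44 and 8.48 with quercetin, with no overlap between the 3 groups. It rose with both compounds (1.13 with myricetin, adjusted p = 0.00248, and 2.97 with quercetin, adjusted p = 3.78e-07), and the flavonols differed by -1.84 ± 0.15 (3.58-fold, adjusted p = 0.000171). The apolipoprotein genes APOE and APOC1, targets of this receptor, were 3.49-fold and 2.55-fold higher with quercetin (adjusted p = 0.0213 and 0.0158). These were the 3 called genes of 14 on the list, and NR1H3 alone, or NR1H3 and 1 more, remained without a flavonol array.

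The cholesterol exporters, the best known targets of the receptor, did not pass the threshold between the compounds. ABCA1 differed by -0.47 (95% interval -0.996 to 0.06, adjusted p = 0.469) and ABCG1 by 0.26 (-0.36 to 0.87, adjusted p = 0.807), and the list's median was -0.03. In cholesterol synthesis only squalene epoxidase (SQLE) passed, 1.79-fold higher with quercetin (-0.84, adjusted p = 0.0238) among 16 genes with a median of 0.12. HMGCS1, an early enzyme of that route, differed by 0.11 (interval -0.44 to 0.66). No gene of the 14 further targets of the SREBP factors passed, which is near the background, since 2.23% of all genes were called.

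Among 17 scavenger receptors, several of which take up modified lipoprotein, 3 were higher with quercetin and none with myricetin (17.6%, against 1.53% of all genes). They were SCARB2, a receptor of the lysosomal membrane (-0.99, adjusted p = 0.0208), CD68 (-0.96, adjusted p = 0.0493) and CD163, the receptor for haemoglobin bound to haptoglobin (-0.94, adjusted p = 0.0466). None of them passed when any of the flavonol arrays was left out, and CD68 and CD163 stood close to the threshold. In the lysosome, 30 of 33 genes had a negative difference with a median of -0.17. Of these 33, 9.09% were called in either direction, against 2.23% of all genes. The protease cathepsin L (CTSL, -1.04, adjusted p = 0.0172) and PSAP (-1.02) were higher with quercetin, the latter just inside the threshold. ATP6V0D2, a subunit of the proton pump, was 2.38-fold higher with myricetin (1.25, adjusted p = 0.0172), with 4.93 and 5.06 against 3.78 and 3.71. No call of this list remained without a flavonol array.

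**Figure D3:**
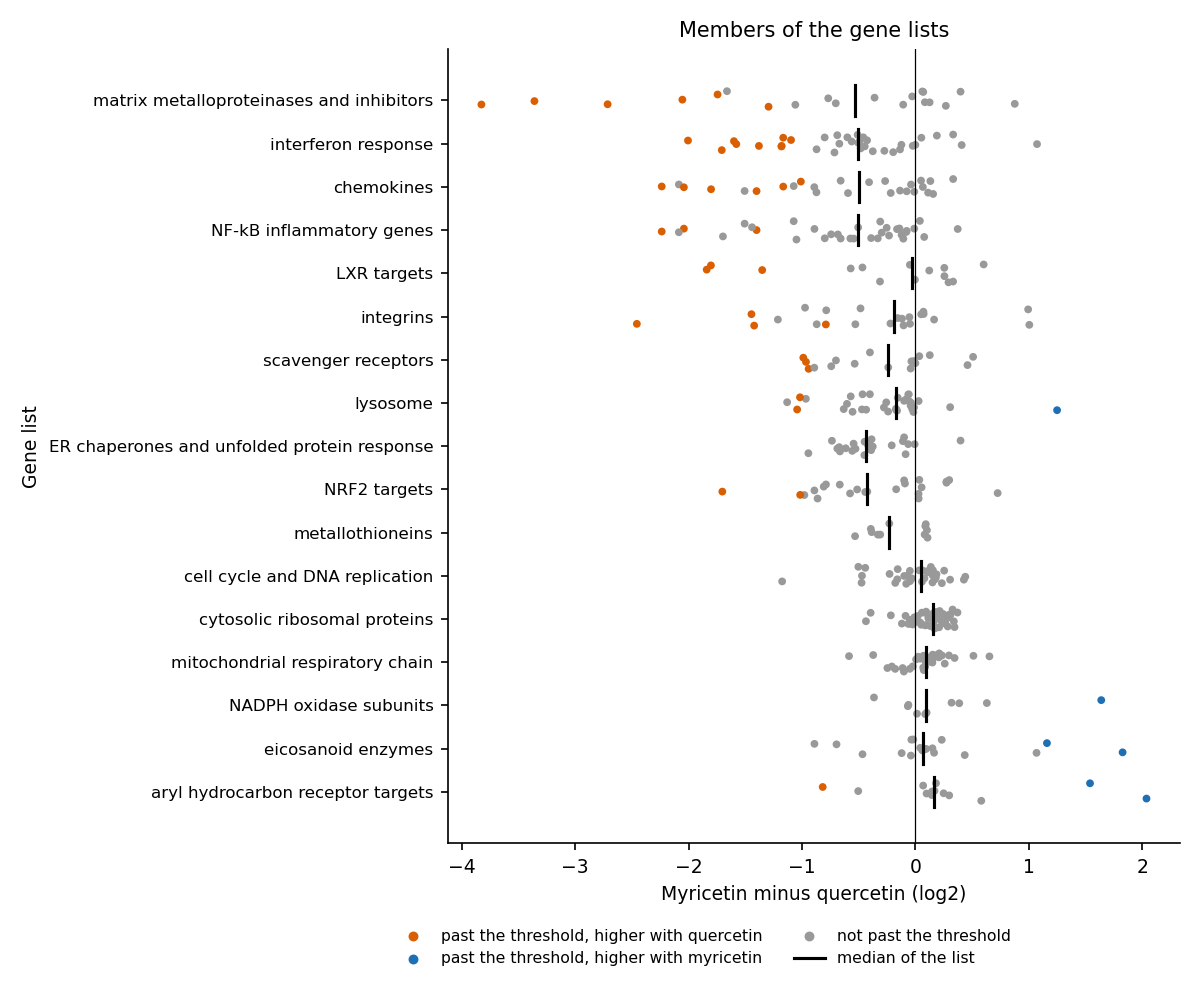
Each point is a gene of 1 of 17 lists, placed by the difference myricetin minus quercetin (log2), and the black bar is the list's median. Orange and blue points passed the threshold. Metalloproteinase, interferon, chemokine and NF-kB lists have medians between -0.53 and -0.50, while those of the cell cycle, ribosomal and respiratory chain lists lie between 0.05 and 0.16.

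In the other direction, 2 of 13 targets of the aryl hydrocarbon receptor were higher with myricetin (0.695% of all genes were). Both were lowered by quercetin against DMSO. CYP1B1, a cytochrome P450 that oxidizes steroids and aromatic compounds, read 8.30 and 8.39 with myricetin, 6.27 and 6.33 with quercetin, and 8.47 to 9.01 with DMSO. It fell by 2.45 with quercetin (adjusted p = 1.31e-05), had a difference of -0.41 with myricetin (adjusted p = 0.53), and was 4.11-fold higher with myricetin than with quercetin (2.04 ± 0.19, adjusted p = 0.000318). TIPARP, an ADP-ribosyltransferase that restrains the receptor, read 8.29 and 8.10 with myricetin, 6.59 and 6.73 with quercetin, and 8.29 to 8.55 with DMSO. It was 2.91-fold higher with myricetin (1.54 ± 0.21, adjusted p = 0.00316, up to 0.0709 without a flavonol array).

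CYP1A1, the most studied target, was dim on all arrays (3.36 to 4.16) and differed by 0.15 (95% interval -0.36 to 0.66, adjusted p = 0.884), a level at which the arrays give little information. EREG, a ligand of the epidermal growth factor receptor, was the third called gene of 13 and was higher with quercetin (-0.82, adjusted p = 0.0156). Of the list, 23.1% was called in either direction, against 2.23% of all genes, and its median was 0.17. The receptor's own gene AHR (-0.32, adjusted p = 0.692) and ARNT2, of the family of its partners (0.33, adjusted p = 0.462), were not called. CYP1B1 passed whichever array was left out, and the count of called targets was 1 or 2 without a flavonol array.

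The receptor binds DNA at the core word GCGTG, which is short and occurred on either strand in 39.7% of all promoters searched. Its share was 31.1% of 90 promoters of genes higher with myricetin and 34.1% of 217 promoters of genes higher with quercetin. The word was thus no more frequent in either direction than among all genes. EREG, the called target that was higher with quercetin, also holds 1 match. The promoter of TIPARP is shown because it is the called target on the myricetin side with a promoter in the table, and it holds 2 matches that begin at -208 and -142 from its start, in capitals as CACGC on the printed strand.
TIPARP, chr3:156674340-156674589, plus strand: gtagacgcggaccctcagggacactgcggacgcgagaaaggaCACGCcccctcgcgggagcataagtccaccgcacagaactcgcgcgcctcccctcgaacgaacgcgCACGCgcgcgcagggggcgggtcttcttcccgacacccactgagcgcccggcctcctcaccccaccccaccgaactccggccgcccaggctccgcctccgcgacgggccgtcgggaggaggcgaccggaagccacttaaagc

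Of 18 enzymes that make eicosanoids, the lipid mediators of inflammation, 2 were higher with myricetin and none with quercetin (11.1% called, against 0.695% of all genes in that direction), and 7 had a negative difference. ALOX5AP, which presents arachidonic acid to 5-lipoxygenase, read 9.36 and 9.76 with myricetin, 7.85 and 7.61 with quercetin, and 9.29 to 10.32 with DMSO. Myricetin lay inside the DMSO range and quercetin below it, and the flavonols differed by 1.83 ± 0.36 (3.55-fold, adjusted p = 0.0237). ALOX5, the lipoxygenase itself, was 2.24-fold higher with myricetin (1.16, adjusted p = 0.019). CYSLTR1, a receptor of the cysteinyl leukotrienes that is not on this list and was among the 15 widest differences in this direction, read 8.78 and 8.39 with myricetin and 6.65 and 6.80 with quercetin (3.62-fold, adjusted p = 0.00465).

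The list's median was 0.07, and neither call on it remained without a flavonol array (adjusted p up to 0.226 and 0.224). For CYSLTR1 the largest adjusted p was 0.0885. NCF4, the p40 subunit of the phagocyte NADPH oxidase, read 8.51 and 8.89 with myricetin, 7.24 and 6.88 with quercetin and 7.67 to 8.51 with DMSO. It was 3.12-fold higher with myricetin (1.64 ± 0.24, adjusted p = 0.00493, up to 0.0828 without a flavonol array) and was the called gene of 10 on the oxidase list.

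Among the remaining genes with the widest difference in favour of myricetin, S100A4, a calcium-binding protein of motile cells, read 8.96 and 8.22 with myricetin and 6.25 and 6.52 with quercetin. The DMSO arrays, at 8.24 to 8.54, lay with myricetin, and the difference was 2.20 ± 0.23 (4.6-fold, adjusted p = 0.000527). They included 4 further receptors coupled to G proteins. P2RY8 differed by 2.19 (4.55-fold, adjusted p = 0.00071), ADGRD1, an adhesion receptor, by 2.09 (4.27-fold, adjusted p = 0.00196), the muscarinic receptor CHRM3 by 2.21 (adjusted p = 0.0284) and CX3CR1, the receptor of fractalkine, by 1.65 (adjusted p = 0.0142). P2RY8 and CX3CR1 fell with quercetin against DMSO (-1.55, adjusted p = 0.00146, and -1.50, adjusted p = 0.00668), while CHRM3 and ADGRD1 rose with myricetin (2.14, adjusted p = 0.04, and 1.33, adjusted p = 0.0293).

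ANTXR1, a receptor that binds collagen and anthrax toxin, was 4.61-fold higher with myricetin (2.20, adjusted p = 0.00299), CDON, a coreceptor of hedgehog proteins, 3.6-fold (adjusted p = 0.0187), and HEY2, a Notch target, 3.18-fold (adjusted p = 0.0344). SMYD3, a lysine methyltransferase, and BMP8B stood near the threshold (adjusted p = 0.0457 and 0.0486). The pseudogene REXO1L1P had the widest difference (3.10, adjusted p = 0.0401), with 8.76 at both passages under myricetin and 5.67 and 5.65 under quercetin. Its DMSO arrays ranged from 5.43 to 7.91 and it has 6 clusters with near-identical copies, so its value is uncertain. S100A4, P2RY8 and ADGRD1 passed whichever array was left out, and ANTXR1 had an adjusted p of up to 0.0539. CHRM3, CX3CR1, CDON, HEY2, SMYD3, BMP8B and REXO1L1P missed the threshold without at least 1 flavonol array.

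**Figure D4:**
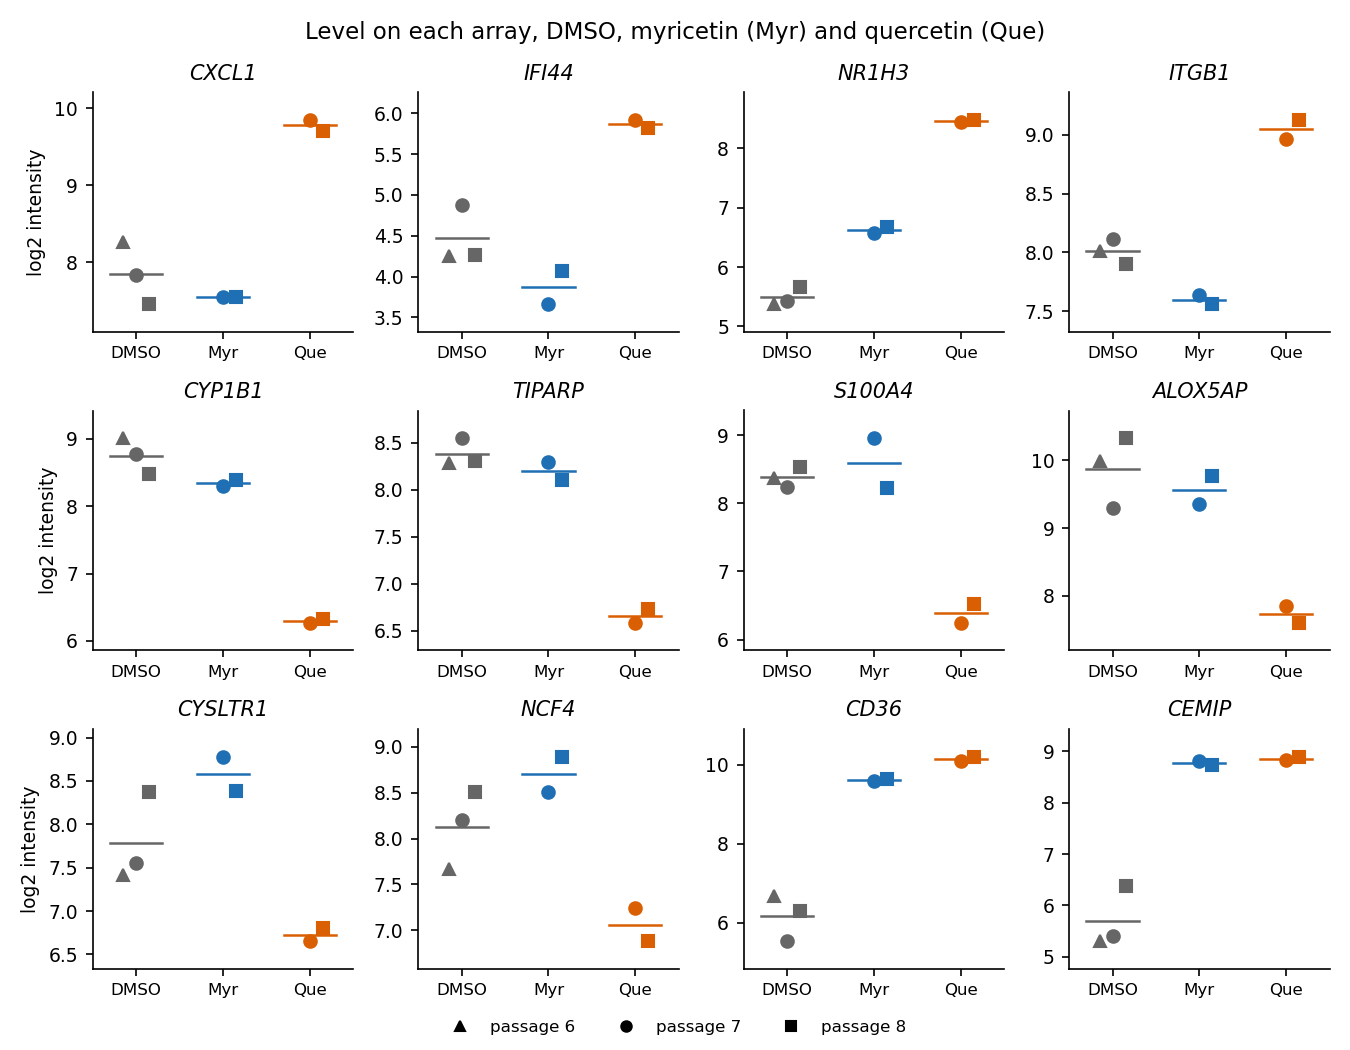
Level (log2 intensity) of 12 genes on each DMSO, myricetin and quercetin array, with symbols for the passage and a line at the group mean. CXCL1, IFI44, NR1H3 and ITGB1 are higher with quercetin, CYP1B1, TIPARP, S100A4, ALOX5AP, CYSLTR1 and NCF4 are higher with myricetin, and CD36 and CEMIP are high with both. The vertical axes differ between panels and do not start at 0.

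Called genes were spread unevenly over the antioxidant and detoxifying lists. Of 23 targets of NRF2, the cystine transporter SLC7A11 (-1.70, 3.25-fold, adjusted p = 0.0164) and the efflux pump ABCC3 (-1.02, adjusted p = 0.0284) were higher with quercetin. This is 8.7%, against 1.53% of all genes in that direction, and the list's median was -0.42. HMOX1, haem oxygenase, read 7.28 and 7.14 with myricetin and 8.21 and 8.16 with quercetin and missed the threshold (-0.98, adjusted p = 0.0655), as did GCLM of glutathione synthesis (-0.79, adjusted p = 0.138). NQO1, a quinone reductase, differed by 0.30 (95% interval -0.28 to 0.87, adjusted p = 0.736). Without the DMSO array of passage 6, 6 NRF2 targets passed, and without a flavonol array 1 or none did.

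None of the 12 measured enzymes that conjugate flavonols with sulfate, glucuronide, methyl or glutathione groups passed. With 2.23% of all genes called, this is near the background and no result about them. Of 16 transporters, SLCO4A1, an organic anion transporter (-1.09, adjusted p = 0.0217), and ABCC3 were higher with quercetin (12.5%, against 1.53% of all genes). The glucose transporter SLC2A1 differed by -0.05 (interval -0.63 to 0.53). TXNIP, which binds thioredoxin, was 1.9-fold higher with myricetin (adjusted p = 0.0309) among 21 antioxidant genes (4.76% called). The phosphofructokinase gene PFKP was 2.06-fold higher with myricetin (adjusted p = 0.0328) among 17 glycolysis genes (5.88% called). Of all genes, 0.695% were called in that direction. In iron handling, SLC11A1, the metal transporter of phagosomes, rose with both compounds (1.91 with myricetin and 2.94 with quercetin) and was 2.05-fold higher with quercetin (-1.04, adjusted p = 0.0158). CD163 was the other called gene of 18 (11.1%, against 1.53% of all genes higher with quercetin). Among 11 metallothioneins none passed, again near the background, and MT2A differed by -0.53 (interval -1.17 to 0.11). These calls, SLC7A11 included, were lost without at least 1 flavonol array.

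Single members were called in lists of signalling and survival. The phosphatases DUSP5 (-1.23, adjusted p = 0.0127) and DUSP10 (-1.11, adjusted p = 0.00711), which switch off MAP kinases, were higher with quercetin among 17 feedback genes (11.8%, against 1.53% of all genes). BCL2, which blocks apoptosis, was 1.82-fold higher with quercetin (adjusted p = 0.0164) among 18 genes of its family (5.56% called). The histone gene H2BC21 was 2.2-fold higher with myricetin (adjusted p = 0.00516) among 43 histone genes (2.33%, against 0.695% of all genes in that direction). These 4 calls were lost without at least 1 flavonol array.

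Several lists held no called gene. With 2.23% of all genes called, 0 in lists of this size is near the background and is no result about them. They were the 34 cell cycle genes (median 0.05), the 49 ribosomal proteins (0.16), the 33 genes of the respiratory chain (0.09), the 22 hypoxia-inducible genes (-0.17), the 20 p53 targets (0.01) and the 20 kinases named as flavonol targets (0.04). The cell cycle list reached down to CCNB2, a mitotic cyclin, at -1.17 (interval -1.95 to -0.40, adjusted p = 0.136). Among 22 chaperones of the endoplasmic reticulum none passed, although 21 were lower with myricetin with a median of -0.43. DNAJB9 (-0.94, adjusted p = 0.0895) and HYOU1 (-0.74, adjusted p = 0.0611) came closest. The lists of 22 zinc transporters, 23 immediate early genes, 21 lipid storage genes, 18 heat shock chaperones and 23 sirtuin and clock genes held no call either, and their medians lay between -0.21 and 0.06. Of the 13 glucocorticoid response genes only CD163 passed, and of the 29 targets of ATF4, the factor of amino acid shortage, only SLC7A11. Of 50 small nucleolar RNAs of the C/D type, 45 were lower with myricetin (median -0.25) and none passed. The reference genes GAPDH (0.16, interval -0.46 to 0.79) and ACTB (0.21, interval -0.19 to 0.61) did not pass.

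The responses to the compounds were also set side by side in genes that were not chosen by the difference between them. The mean of both flavonols against DMSO was fitted as a separate contrast, in which 448 genes (2.43%) passed, 349 rising and 99 falling. For the separate compounds, 124 genes passed against DMSO with myricetin (0.673%) and 829 with quercetin (4.5%). These comparisons share the DMSO arrays. Among the 349 rising genes the median change was 0.64 with myricetin and 1.25 with quercetin, and 125 of them (35.8%) differed between the compounds, 120 in favour of quercetin and 5 in favour of myricetin. In 148 of the 349 the whole 95% interval of the difference lay within 2-fold, against 16574 of all 18417 genes, which is a larger share. Among the 99 falling genes the medians were -0.60 and -0.87, 16 (16.2%) differed, and 75 had an interval within 2-fold. A gene moved strongly by quercetin alone also enters these sets, and more genes passed against DMSO with quercetin than with myricetin. The medians and the split by direction can therefore follow in part from the choice. The contrasts also share each gene's error estimate, so a gene with a small error passes both more easily. The 35.8% is thus not comparable with the share over all genes.

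The scavenger receptor CD36 read 9.60 and 9.63 with myricetin and 10.09 and 10.20 with quercetin, far above 5.54 to 6.66 with DMSO. It rose by 3.45 and 3.99 (adjusted p = 0.000101 and 5e-06) and the flavonols differed by -0.53 (95% interval -1.14 to 0.07, adjusted p = 0.465). MSR1, a further scavenger receptor, rose by 3.31 and 3.55 and differed by -0.24 (-0.99 to 0.51, adjusted p = 0.866). CEMIP, which takes part in hyaluronan breakdown, rose by 3.07 and 3.16 and differed by -0.08 (-0.71 to 0.54, adjusted p = 0.953). The intervals of MSR1 and CEMIP lie within 2-fold, and that of CD36 reaches slightly beyond it.

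FABP4, a fatty acid carrier of macrophages and fat cells, had the largest fitted rise, from 2.73 to 5.22 with DMSO to 8.51 and 8.73 with myricetin and 10.51 and 10.64 with quercetin. The flavonols did not overlap and differed by -1.95, but the wide DMSO spread gave an interval of -3.24 to -0.67 and an adjusted p of 0.131. On 2 of the DMSO arrays FABP4 lay under the lower quartile, so the size of its rise is uncertain. TDO2, a tryptophan-degrading enzyme, had the same form (-1.96, interval -3.07 to -0.85, adjusted p = 0.0749). MMP8, MMP1 and TGFB3, given above, completed the 8 genes with the largest rise.

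Of the 8 genes with the largest fall, CYP1B1 and ALOX5AP passed against DMSO with quercetin and not with myricetin (-0.41, interval -0.80 to -0.02 before adjustment, and -0.31, interval -1.03 to 0.42). SESN3, a sestrin of the stress response, fell by 1.33 with myricetin and by 1.40 with quercetin and differed by 0.07 (interval -0.36 to 0.50, adjusted p = 0.942). The small nucleolar RNA SNORA62 fell by 1.70 and by 2.09 (difference 0.39, adjusted p = 0.736). IRAK3, a brake on Toll-like receptor signalling, fell by 1.82 with quercetin (adjusted p = 0.000454), while with myricetin the value was -1.01 (adjusted p = 0.077), and the flavonols differed by 0.81 (adjusted p = 0.128). The Fc receptors FCGR2A (-0.02, interval -0.93 to 0.89) and FCGR2B (0.20, interval -0.58 to 0.98), which have near-identical relatives, and the histone H1-6 (0.15, interval -0.53 to 0.84) did not pass between the flavonols.

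**Figure D5:**
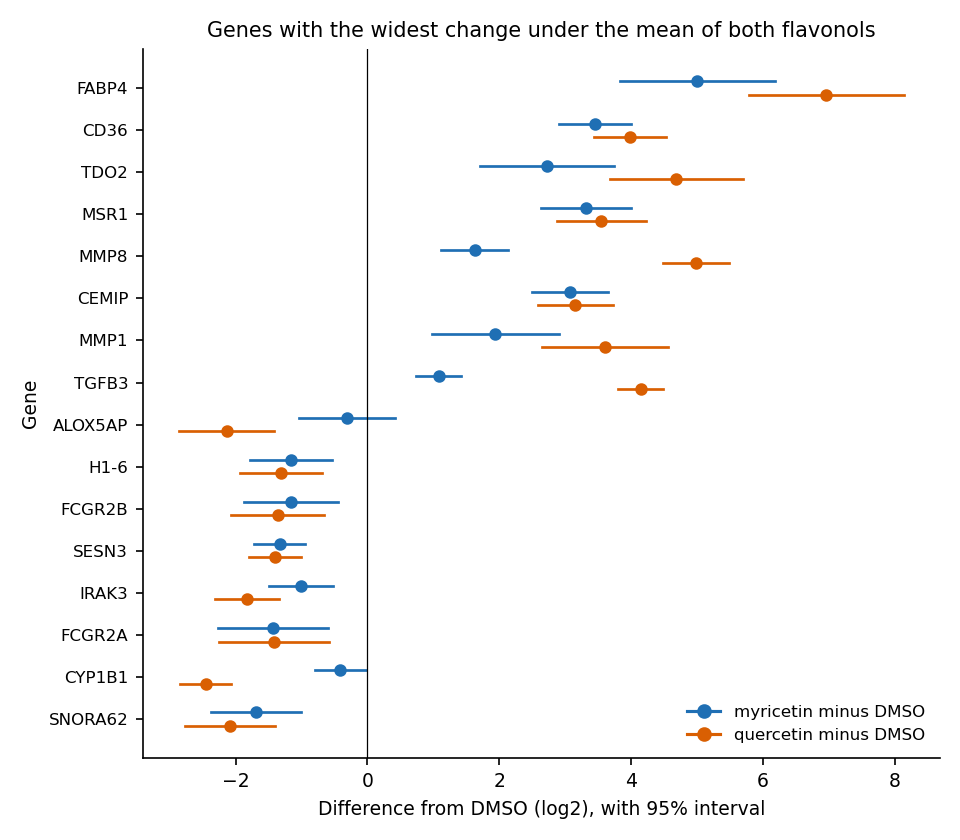
Difference from DMSO (log2) with 95% interval for myricetin (blue) and quercetin (orange) in the 8 genes that rose most and the 8 that fell most under the mean of both flavonols. Intervals of CD36, MSR1, CEMIP, SESN3 and FCGR2A overlap widely, while MMP8 and TGFB3 are further from 0 with quercetin and CYP1B1 and ALOX5AP lie further below 0 with quercetin.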

How the data were processed

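The authors deposited 1 log2 intensity for each transcript cluster and array, made by RMA (background correction, quantile normalization, summary of probes). Tools named in the submitters' processing notes are RMA, Partek 7.0 and Affymetrix Expression Console. Joint normalization of the 10 arrays is not given in the sources used here. No normalization was added. Of 33297 clusters, 19460 carry 1 gene symbol, 1754 several and 12083 none; the brightest cluster per symbol gave 18417 genes. The 4 groups were fitted together by lmFit and eBayes of limma 3.58.1, under R 4.3.3 (10 arrays, 6 residual degrees of freedom), and p was adjusted over all genes by Benjamini and Hochberg. Errors are standard errors and intervals 95% intervals of limma. No p was adjusted over a list. The number of arrays limits the precision.

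Genes named are the 15 with the largest difference in each direction among those past the threshold with one sign at both passages, from each of 44 lists up to 3 called members (or 2 where none passed), the 8 with the largest rise and fall for both flavonols pooled, and a fixed set including CYP1A1, NQO1, GAPDH and ACTB. Further called members of the lists were named after their values were seen. The compounds and lists were chosen with earlier results of these data known. In simulated data of the same design, 76 of 100 genes changed by 1 log2 unit and 100 of 100 changed by 2 were called, with 13 false calls. The simulated noise was independent and, for each gene, equally wide in all groups, which the real arrays were not. These counts therefore describe the fit under its own assumptions. The deviations of the flavonol arrays from their group means correlated at -0.060 between the compounds. This is 1 value across genes that are not independent, so it cannot decide whether passage numbers pair the arrays. Alternatives were the passage block, other sets of arrays, spread estimates, normalizations, filters, rows tested, the methods' t-test and leaving out each array. Most genes that the rule takes from lists with no call are given only through their list's counts, and 1 gene past the threshold is not reported here.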

Additional observations from a re-analysis of the deposited data

Results flagged for a closer look

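The gene-level comparison leaves out transcript clusters that carry several symbols or none. When all 33297 clusters were tested between the flavonols, 8 clusters with several symbols and 19 with no symbol passed an adjusted p under 0.05, a signal in data outside the comparison of genes. All 3 clusters shared by NCF1 and its copies NCF1B and NCF1C were higher with myricetin (1.27 to 1.35). NCF1 encodes the p47 subunit of the phagocyte NADPH oxidase, and these clusters cannot separate the gene from its copies. A cluster shared by POC1B-GALNT4 and GALNT4 had a difference of -1.46 and a cluster shared by C9orf47 and S1PR3, a receptor of sphingosine 1-phosphate, had -1.12, both higher with quercetin.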

How the results depend on the processing

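All 410 genes kept their direction under each alternative in which they were tested, but most of these fits could not change it. They leave the difference between the flavonol means as it is, or drop 1 array from groups that did not overlap. With passage as a replicate block, the paired analysis, 517 genes passed, of which 391 were among the 410; with all 10 arrays the block moved none of the 4 counts by over 1.5 times. The count between the flavonols was 752 with the 8 arrays of passages 7 and 8, 1999 with the 4 flavonol arrays alone (2059 with the replicate block), 2088 with array weights, 155 with all clusters tested, 271 with a 2-fold minimum and 0 with the methods' t-test after adjustment (2875 at an unadjusted p under 0.05, and 2376 in limma). Leaving out 1 array gave 54 to 847. For myricetin against DMSO, 124 became 222, 427, 50, 81 and 0 with the 8 arrays, array weights, all clusters, the 2-fold minimum and the methods' t-test, and 13 to 255 without 1 array. For quercetin against DMSO, 829 became 1445 with the 8 arrays (1248 with the replicate block), 2258 with array weights, 388 with the 2-fold minimum and 0 with the methods' t-test, and 252 to 1514 without 1 array. For both flavonols pooled, 448 became 821, 1163, 294, 162 and 1 under the same settings, and 194 to 909 without 1 array.

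Some differences close to 0 changed sign when 1 flavonol array was left out, namely FCGR2A, H1-6, HMGCS1, MMP2, SESN3, SLC2A1 and TIMP2, each without a call. Without 1 array their differences ranged from -0.17 to 0.14 for FCGR2A, -0.14 to 0.45 for H1-6, -0.071 to 0.30 for HMGCS1, -0.14 to 0.31 for MMP2, -0.23 to 0.36 for SESN3, -0.15 to 0.046 for SLC2A1 and -0.27 to 0.39 for TIMP2.

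The flavonol difference rests on 2 arrays a group, so its error is borrowed from all 4 groups. The median standard deviation between arrays was 0.0981 for myricetin and 0.0839 for quercetin, and 0.19 for DMSO and 0.172 for punicalagin. The fit on the flavonol arrays alone leaves the latter spread out. For genes such as FABP4 and MMP1 the DMSO arrays were far apart. With 2 arrays a group, an exact permutation test cannot reach the threshold.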

Other observations

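Other gene families were looked at after their values were seen, so their counts are descriptions. Of all genes, 0.695% were called higher with myricetin and 1.53% higher with quercetin. Of 53 collagens and laminins, 5 were higher with quercetin (1.53% of all genes were) and none with myricetin, while the family's median was 0.01, with 30 members positive and 23 negative. COL4A1, a chain of basement membrane collagen, was at a mean of 5.36 with myricetin and 7.12 with quercetin, against 4.71 with DMSO (difference -1.76, adjusted p = 0.00073, limma). Its partner COL4A2 differed by -1.32 (adjusted p = 0.016), and COL6A1, COL6A2 and LAMC1 by -1.14, -0.75 and -0.79. Of 30 semaphorins, plexins and neuropilins, SEMA6D (-1.58), SEMA3C (-1.37), NRP2 (-1.29) and NRP1 (-0.87) were higher with quercetin. In this family 13 members were positive and 17 negative, with a median of -0.06. Among 28 ligands of the TGF-beta family, INHBA (-1.50) and BMP6 (-1.40) joined TGFB3 on the quercetin side, and BMP8B lay on the other. Of these ligands 16 were positive and 12 negative, with a median of 0.02.

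On the myricetin side, all 5 GIMAP GTPases, which are known from lymphocytes, had a positive difference, and GIMAP6 (1.24, adjusted p = 0.00166) and GIMAP8 (1.08, adjusted p = 0.0419) passed. GIMAP6 was at 6.26 with myricetin, 5.02 with quercetin and 5.74 with DMSO. The 14 Siglecs, receptors for sialic acid, divided, with SIGLEC16 (1.59) and SIGLEC5 (0.75) higher with myricetin and SIGLEC1 (-0.85) higher with quercetin. Their differences were positive in 7 and negative in 7, with a median of 0.01. The 28 tetraspanins divided as well, with CD37 (1.03) higher with myricetin and TSPAN7 (-2.11), CD82 (-1.42) and TSPAN6 (-1.03) higher with quercetin. Among tetraspanins 12 were positive and 16 negative, with a median of -0.05. COL4A1, COL6A1, SEMA6D, BMP6, GIMAP6 and TSPAN7 passed whichever array was left out, and the other called genes of these families apart from TGFB3 missed the threshold without at least 1 flavonol array.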
